A study of Homo sapiens with 42 samples.

Results

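P-TEFb is the kinase complex that frees paused RNA polymerase II, and a small nuclear particle built on 7SK RNA holds part of it inactive. The 6 genes described here encode its kinase CDK9, its cyclins CCNT1 and CCNT2, the inhibitor HEXIM1, and the 7SK-binding proteins LARP7 and MEPCE. They were taken by symbol from the 26228 genes of the deposited table, each is 1 row, and all 6 passed the filter on low values. The study measured polyadenylated RNA in 42 libraries of HAP1, a near-haploid human line derived from chronic myelogenous leukaemia, after 24 h of treatment. HAP1 whose CDK7 carries the C312S change (C312S) and HAP1 WT (WT) each received YKL at 500 nM, YKL at 2 µM, THZ531, a combination at 500 nM or at 2 µM, THZ1 or the DMSO vehicle, with 3 libraries per group. The title describes a selective covalent CDK7 inhibitor, taken here to be YKL. As background, THZ1 is a covalent inhibitor of CDK7 that also reaches CDK12 and CDK13, THZ531 is a covalent inhibitor of CDK12 and CDK13, and the C312S change removes the CDK7 cysteine to which such covalent compounds attach. The label of a combination names no compound, but the table's columns for it carry the codes of both THZ531 and YKL. The doses of THZ531 and THZ1 are not stated, whether the C312S line is 1 clone is not stated, and expression values cannot check the allele.

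CDK9 pairs with a cyclin T and phosphorylates the paused polymerase and its pausing factors NELF and DSIF. A share of it is bound to 7SK RNA through HEXIM1, which blocks the kinase while it is bound. LARP7 holds the end of 7SK RNA and MEPCE caps its start, so both keep the RNA stable. HEXIM1 is named for its induction by hexamethylene bisacetamide, an agent that releases P-TEFb from 7SK. 7SK RNA itself is not analysed here.

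In the annotation of GRCh38 (GENCODE 29) HEXIM1 on chromosome 17 is a gene of 1 exon, while CDK9 on chromosome 9 has 7 exons and LARP7 on chromosome 4 has 13 to 15. CCNT1 is on chromosome 12, CCNT2 on chromosome 2 and MEPCE on chromosome 7. The RefSeq promoter table of GRCh38.p14 matched all 6 genes with 10 windows, of which the 100 bases before the start were searched for TATAAA, the core letters of a TATA box. The windows of the members with a single listed start are shown, because HEXIM1 moved apart from the other members in the RNA data. The capitals mark TATAAA. HEXIM1 lies at chr17:45148375-45148474, CDK9 at chr9:127785934-127786033 and CCNT2 at chr2:134918722-134918821, all on the plus strand.
HEXIM1: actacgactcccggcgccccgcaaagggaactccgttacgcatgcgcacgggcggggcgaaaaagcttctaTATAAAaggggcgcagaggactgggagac
CDK9: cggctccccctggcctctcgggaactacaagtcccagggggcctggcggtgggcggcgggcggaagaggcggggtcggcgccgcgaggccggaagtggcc
CCNT2: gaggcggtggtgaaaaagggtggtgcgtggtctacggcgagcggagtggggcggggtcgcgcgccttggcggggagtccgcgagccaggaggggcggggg
TATAAA began 29 bases before the HEXIM1 start, and was found in 1 of the 10 member windows on the gene's strand and in 0 on the other strand. Of all 35116 windows of this length, 3.51% held it on the gene's strand and 1.85% on the other. A match is a description of these letters only.

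The values are FPKM, fragment counts scaled by the authors for gene length and library, so the number of reads per library is unknown. Steps between the low values give relative depths, with WT DMSO replicate 1 set to 1. These ran from 0.576 (WT THZ1 replicate 1) to 5.41 (WT THZ531 replicate 2) in WT, from 0.907 to 2.29 in most C312S groups, and from 0.775 to 1.75 in C312S THZ1 and DMSO. The 6 C312S libraries with THZ1 or DMSO stood apart, with FPKM summing to 780000 to 913000, against 543000 to 598000 in the other 15 C312S libraries and 448000 to 638000 in the 21 WT libraries. For that reason C312S YKL, THZ531 and combination groups were not tested against C312S DMSO. Spike-in RNA is, as background, usually added at a fixed amount. Its level over that of the genes was taken on the log2 scale relative to the mean of all libraries. This value was 0.60 to 1.19 in those 6 libraries, -0.99 to 0.08 in the other C312S libraries and -0.86 to 1.83 in WT. The sample labels do not give the amount added. Of 11 blood cell markers 2 passed 1 FPKM in any group (TAL1 up to 2.90 and KIT up to 1.47 FPKM), the whole list summed to 2.78 to 4.83 FPKM, and the fetal globin HBG1 was listed at 0 throughout. Of 10 epithelial and fibroblast markers 4 passed 1 FPKM, led by VIM at 215 to 501 FPKM. The leukocyte marker PTPRC reached at most 0.121 FPKM, CD34 0.373 and CD33 0.885 FPKM. HAP1 cells grow attached, as background.

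**Figure D1:**
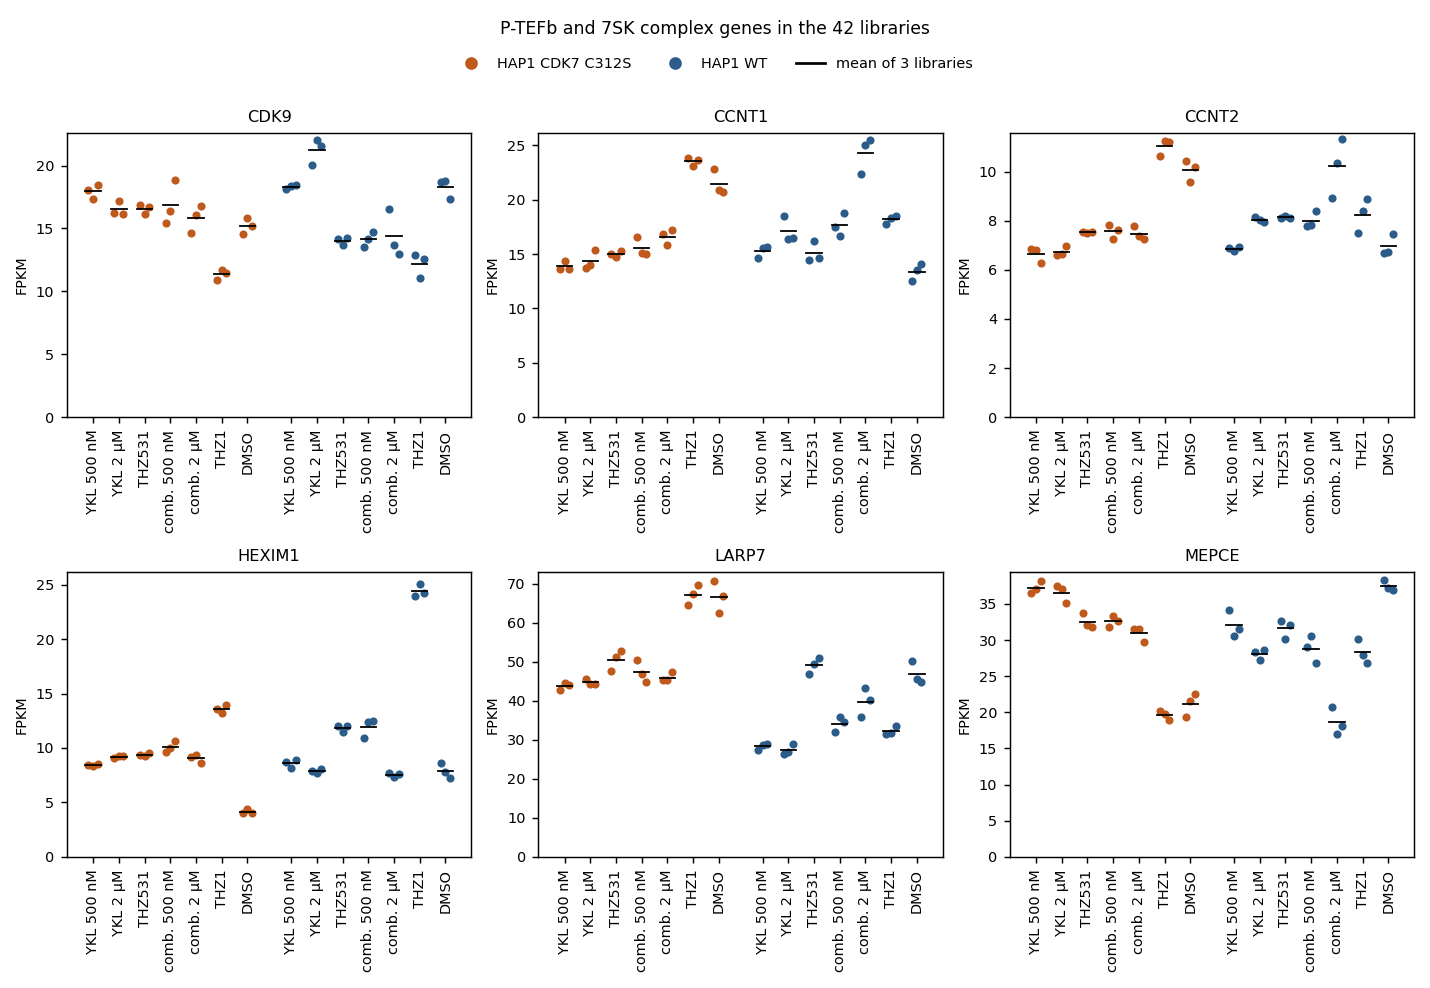
FPKM of the 6 genes in each of the 42 libraries, by group, with C312S groups left of WT groups, where each dot is a library and each line the mean of 3. HEXIM1 with THZ1 stands above every other group of its line, and C312S DMSO is its lowest group at 4.15 FPKM.

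In FPKM, a scale per length, LARP7 had the highest level of the 6 genes in most groups, up to 67.2 ± 2.55 FPKM (SD, n = 3) in C312S with THZ1, and MEPCE led only in WT with YKL at 500 nM and 2 µM. Relative to its lowest group mean, HEXIM1 varied most across the 14 groups, with group means from 4.15 to 24.5 FPKM. Group means ran from 27.4 to 67.2 FPKM for LARP7, from 18.6 to 37.5 for MEPCE and from 13.4 to 24.3 for CCNT1. Those of CDK9 ran from 11.4 to 21.2 FPKM and those of CCNT2 from 6.65 to 11 FPKM. When the groups were ordered by mean, the libraries of neighbouring groups overlapped in 6 of 13 steps for HEXIM1, 12 of 13 for CCNT2 and 11 of 13 for each of the other 4 genes. The order for HEXIM1 ran from WT with THZ1, C312S with THZ1, the WT combination at 500 nM and WT with THZ531 at the top to WT with YKL at 2 µM, the WT combination at 2 µM and C312S DMSO at the bottom.

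Tests compared log2(FPKM + 1) with limma across all 12816 genes tested, a scale that understates changes of low genes, and a gene was called at a Benjamini-Hochberg adjusted p under 0.05. All groups shared 1 estimate of the spread, so a gene has the same standard error in every pair of groups. Whether the 3 libraries of a group are separate cultures is not stated, so their spread, on which the p-values rest, may be technical. The 6 WT comparisons with DMSO share the same 3 DMSO libraries. Calls among all genes were common. With YKL at 500 nM 2 of 6 members were called higher and 2 lower, where 31.3% and 31.7% of all genes tested were, 63% either way. With YKL at 2 µM 3 were called higher and 2 lower, against 31.8% and 33.5% of all genes (65.3% either way). With THZ531 3 were higher and 2 lower, against 24% and 22.9% of all genes (46.9%). With the combination at 500 nM 3 were higher and 3 lower, against 34% and 34.2% of all genes (68.2%), and at 2 µM 2 were higher and 3 lower, against 38.9% and 38.1% of all genes (77.1%). With THZ1 3 were higher and 3 lower, against 34% and 34.8% of all genes (68.8%). At these backgrounds a count of called members is no result about the complex, and the sizes and directions below carry the description. The median change of all genes tested lay between -0.01 and 0.01 in these comparisons.

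HEXIM1, the inhibitor, had the largest change of the 6 genes, under THZ1 in both lines. In WT it had 24.0, 25.1 and 24.3 FPKM with THZ1, 12.1, 11.5 and 12.0 FPKM with THZ531, and 8.59, 7.83 and 7.28 FPKM with DMSO. Every THZ1 and THZ531 library was above every DMSO library. HEXIM1 rose by 1.52 ± 0.046 (log2 change ± SE) with THZ1, a 2.87-fold change on that scale (adjusted p = 1.39e-22, limma), and by 0.53 ± 0.046 with THZ531 (adjusted p = 1.1e-10). As the doses of THZ1 and THZ531 are not stated, these changes stand side by side and were not compared. Scaled to the spike-in RNA, HEXIM1 was 0.72 lower with THZ1 than with DMSO in WT on the log2 scale, while the median gene moved by -1.99, so HEXIM1 lay above the median gene under either scaling but its direction per spike-in was downward.

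With YKL the HEXIM1 level stayed near that of DMSO. It had 8.73, 8.18 and 8.87 FPKM at 500 nM and 7.92, 7.74 and 8.03 FPKM at 2 µM, and both sets overlapped the DMSO libraries. The change at 500 nM was 0.11 ± 0.046 and passed the threshold (adjusted p = 0.0387, limma). That call was lost without WT DMSO replicate 2 (0.11) or 3 (0.06), without WT YKL 500 nM replicate 1 (0.10) or 3 (0.09), and when only these groups were fitted, and its sign turned under spike-in scaling (-0.48, with the median gene at -0.58). At 2 µM the difference was 0.00 with a 95% interval from -0.09 to 0.10.

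The combinations differed from each other in HEXIM1. At 500 nM it had 10.9, 12.4 and 12.5 FPKM in WT, which overlapped WT with THZ531 and lay above DMSO (log2 change 0.54 ± 0.046, adjusted p = 9.56e-12, limma). At 2 µM it had 7.72, 7.34 and 7.57 FPKM, below all THZ531 libraries and within the range of DMSO (log2 difference -0.06, adjusted p = 0.269). Against THZ531 alone HEXIM1 fell by 0.59 ± 0.046 on the log2 scale with the combination at 2 µM (adjusted p = 8.47e-13), with 73.5% of all genes called in that comparison. Against the same dose of YKL alone it rose with the combination at 500 nM (0.43, adjusted p = 1.15e-08, 47.8% of genes called), while at 2 µM it differed by -0.06 (adjusted p = 0.265, 71% called).

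**Figure D2:**
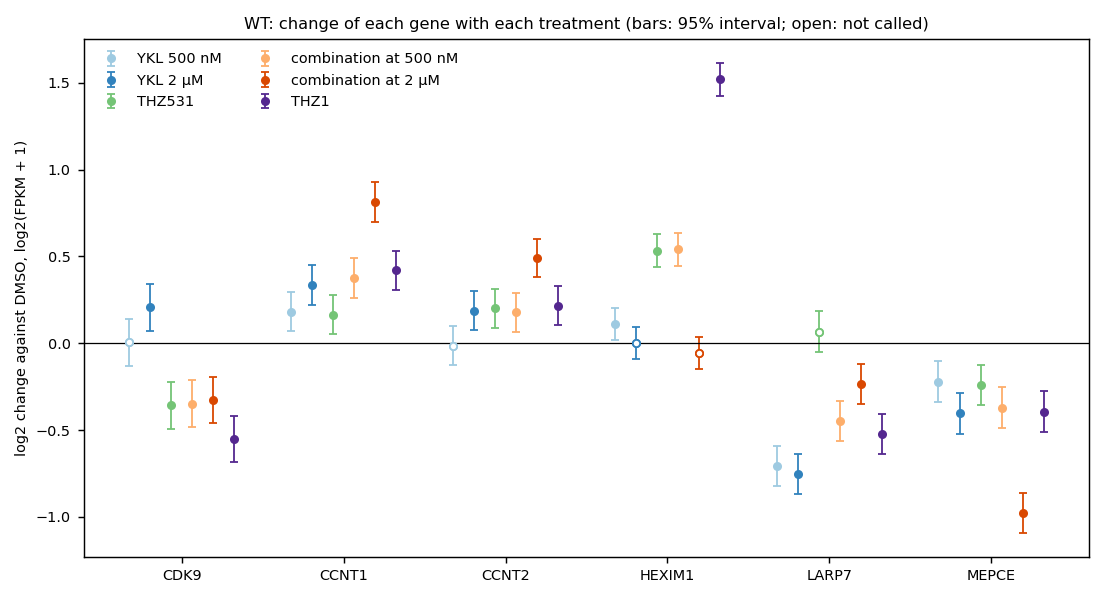
Log2 change of each gene in WT with each treatment against DMSO on the log2(FPKM + 1) scale, where bars are 95% intervals and open points were not called. HEXIM1 with THZ1 is the largest at 1.52, and MEPCE with the combination at 2 µM is the lowest at -0.98.

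CDK9, the kinase, fell with THZ531, THZ1 and both combinations in the values as deposited, while with YKL alone it was level or higher, except under spike-in scaling, where it fell by 0.62 with YKL at 500 nM (median gene -0.58). In WT it had 12.9, 11.02 and 12.6 FPKM with THZ1 and 14.1, 13.7 and 14.2 FPKM with THZ531, against 18.7, 18.8 and 17.3 FPKM with DMSO, and none of these libraries overlapped DMSO. The log2 change ± SE was -0.55 ± 0.066 with THZ1 (adjusted p = 1.01e-08, limma) and -0.36 ± 0.066 with THZ531 (adjusted p = 5.28e-05). With the combinations it averaged 14.1 ± 0.582 FPKM at 500 nM and 14.4 ± 1.89 FPKM at 2 µM (SD, n = 3 each), log2 changes of -0.35 and -0.33 that were both called. YKL at 2 µM gave 20.0, 22.1 and 21.6 FPKM, above every other group, and CDK9 rose by 0.21 ± 0.066 against DMSO (adjusted p = 0.00722). YKL at 500 nM gave 18.1, 18.4 and 18.5 FPKM, a difference of 0.00 with a 95% interval from -0.13 to 0.14. Scaled to the spike-in RNA, CDK9 with YKL at 2 µM was 0.10 higher and no longer called, and the change with THZ531 also lost its call (-0.30).

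CCNT1, the main cyclin partner of CDK9, was higher than in DMSO with all 6 treatments in WT in the values as deposited. It had 22.3, 25.0 and 25.5 FPKM with the combination at 2 µM and 17.8, 18.3 and 18.5 FPKM with THZ1, against 12.5, 13.5 and 14.1 FPKM with DMSO. CCNT1 rose by 0.82 ± 0.056 with the combination at 2 µM (adjusted p = 2.47e-14, limma) and by 0.42 ± 0.056 with THZ1 (adjusted p = 8.59e-08), on the log2 scale. The other 4 changes were called too, at 0.38 with the combination at 500 nM, 0.34 with YKL at 2 µM, 0.18 with YKL at 500 nM and 0.17 with THZ531. The change with YKL at 500 nM lost its call without WT DMSO replicate 1 (0.14), and that with THZ531 lost it without WT DMSO replicate 1 (0.12) or WT THZ531 replicate 2 (0.12). Scaled to the spike-in RNA, CCNT1 was lower than in DMSO with THZ1 (-1.80), the combination at 2 µM (-0.25) and YKL at 500 nM (-0.44).

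CCNT2, the other cyclin that pairs with CDK9, followed CCNT1 at a lower level. It had 8.95, 10.4 and 11.4 FPKM with the combination at 2 µM, against 6.68, 6.74 and 7.47 FPKM with DMSO, and rose by 0.49 ± 0.055 on the log2 scale. It also rose by 0.22 with THZ1 (adjusted p = 0.000878, limma), 0.20 with THZ531, 0.19 with YKL at 2 µM and 0.18 with the combination at 500 nM, while its difference with YKL at 500 nM was -0.02 (adjusted p = 0.825). With spike-in scaling CCNT2 was lower in 3 of the comparisons in which it had risen, with THZ1 (-1.80), the combination at 500 nM (-0.17) and the combination at 2 µM (-0.52). With YKL at 500 nM it was called lower under spike-in scaling (-0.60, median gene -0.58). Scaled to total FPKM, it was called higher there (0.19, median gene 0.20).

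LARP7, which binds the end of 7SK RNA, fell with YKL but not with THZ531. In WT it had 27.4, 28.7 and 28.8 FPKM with YKL at 500 nM and 26.4, 26.9 and 28.8 FPKM at 2 µM, against 50.2, 45.5 and 44.8 FPKM with DMSO. Every YKL library was below every DMSO library, and LARP7 fell by 0.71 ± 0.057 at 500 nM (adjusted p = 3.62e-12, limma) and by 0.75 ± 0.057 at 2 µM (adjusted p = 6.41e-13), on the log2 scale. THZ531 left 46.8, 49.3 and 51.0 FPKM, a difference of 0.07 with a 95% interval from -0.05 to 0.18. LARP7 fell by 0.52 with THZ1, by 0.45 with the combination at 500 nM and by 0.24 with the combination at 2 µM, all called. At 500 nM the combination was also lower than THZ531 alone (-0.51, adjusted p = 4.2e-09, 61.1% of genes called), and at 2 µM by a smaller amount (-0.30, adjusted p = 2.43e-05).

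MEPCE, which caps 7SK RNA, was lower than in DMSO with all 6 treatments in WT in the values as deposited. It had 20.8, 16.9 and 18.2 FPKM with the combination at 2 µM, against 38.3, 37.3 and 36.9 FPKM with DMSO, and fell by 0.98 ± 0.057 on the log2 scale (adjusted p = 4.78e-16, limma). Its other changes ran from -0.40 with YKL at 2 µM to -0.22 with YKL at 500 nM, all called, with group means of 28.1 to 32.1 FPKM and no library overlapping DMSO. Scaled to total FPKM, MEPCE with YKL at 500 nM was 0.01 higher, with the median gene at 0.20.

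Base composition moved with some of these results. Across 12585 genes the Spearman correlation of the change with the GC content of the transcript was -0.46 with THZ531, -0.46 with the combination at 2 µM, -0.30 with the combination at 500 nM, -0.03 with YKL at 500 nM, -0.10 with YKL at 2 µM and -0.10 with THZ1, and genes are not independent replicates. MEPCE is the most GC-rich member (61.7%), CCNT2 (37%) and LARP7 (38.1%) the least. With trends in GC and length removed, an alternative chosen after seeing the data, the THZ531 changes of CCNT1 (0.04), CCNT2 (0.07) and MEPCE (-0.03) and the CCNT2 change with the combination at 500 nM (0.09) lost their calls. With the combination at 2 µM, LARP7 moved to -0.71, MEPCE to -0.49, CCNT2 to 0.31 and CDK9 to -0.18, and HEXIM1 gained a call at -0.12. THZ531 changed CDK9 by -0.22, THZ1 changed MEPCE by -0.24 and the combination at 500 nM changed MEPCE by -0.11 with the trends removed. The HEXIM1 rises with THZ1 and THZ531 kept their calls. Of the 83 gene results to which this was applied, 66 kept their direction and call.

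The scaling between libraries also decided calls of the smaller changes. Under spike-in scaling HEXIM1 alone stayed called with THZ531 in WT (0.62), and LARP7 (-0.87) and MEPCE (-0.51) alone with YKL at 2 µM. With the combination at 500 nM, HEXIM1 (0.20), CCNT1 (0.01) and CCNT2 (-0.17) lost their calls on that scale. With the combination at 2 µM HEXIM1 gained one (-1.05, with the median gene at -0.93). CDK9 (-0.62) and CCNT2 (-0.60) gained calls on it with YKL at 500 nM, with the median gene at -0.58. Under total-FPKM scaling, which moved the median gene by 0.20 with YKL at 500 nM, 0.25 with YKL at 2 µM, 0.14 with the combination at 500 nM and -0.15 with THZ1, MEPCE with YKL at 2 µM (-0.12) and CCNT2 with THZ1 (0.07) lost their calls. MEPCE with YKL at 500 nM (0.01) lost its call too. On that scale CDK9 (0.23) and CCNT2 (0.19) with YKL at 500 nM, HEXIM1 with YKL at 2 µM (0.26) and LARP7 with THZ531 (0.14) gained calls.

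The combinations in WT were also set against their single agents. Against THZ531, the combination at 2 µM left CDK9 0.03 higher and not called, while CCNT1 rose by 0.65, CCNT2 rose by 0.29 and MEPCE fell by 0.74, and spike-in scaling turned CCNT1 to -0.48 and CCNT2 to -0.79, with the median gene at -0.98. With GC and length trends removed LARP7 moved from its -0.30 to -0.73 in that comparison and MEPCE to -0.46. At 500 nM CCNT1 was 0.21 higher (adjusted p = 0.00173, limma, -0.23 under spike-in scaling) and MEPCE 0.13 lower than with THZ531 (adjusted p = 0.0467), and the MEPCE call was lost without WT combination 500 nM replicate 1 or 3, without WT THZ531 replicate 1 or 3 (-0.08 to -0.14), under total-FPKM scaling (-0.04) and with the trends removed. Against YKL at 2 µM, CDK9 fell by 0.53 and MEPCE by 0.57 with the combination at 2 µM, and MEPCE was at -0.19 with the trends removed. CCNT1 (0.48), CCNT2 (0.30) and LARP7 (0.52) rose in that comparison, spike-in scaling turned them to -0.49, -0.61 and -0.46, and LARP7 was at 0.04 and not called with the trends removed. Against YKL at 500 nM, CDK9 fell by 0.35 and MEPCE by 0.15 with the combination at 500 nM, CCNT1 and CCNT2 each rose by 0.19 and LARP7 by 0.26, and CCNT2 (0.08), LARP7 (0.09) and MEPCE (0.04) lost their calls with the trends removed. In that comparison CCNT1 lost its call without WT combination 500 nM replicate 3 (0.15), and MEPCE without that library (-0.10) or WT YKL 500 nM replicate 1 (-0.10), and spike-in scaling turned MEPCE to 0.11 and ended the call of CDK9 (-0.10). Total-FPKM scaling ended the calls of CCNT1 (0.13) and CCNT2 (0.13) there.

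**Figure D3:**
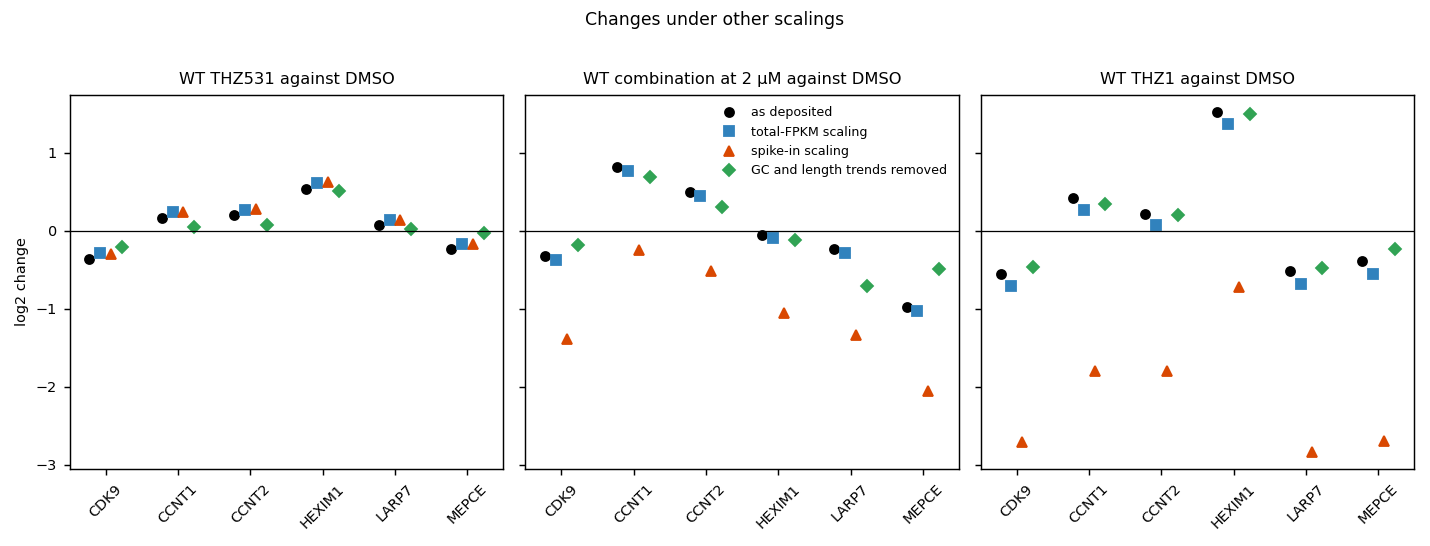
Log2 change in WT against DMSO for THZ531, the combination at 2 µM and THZ1, with the values as deposited, scaled to total FPKM, scaled to spike-in RNA, or with GC and length trends removed. Spike-in scaling puts all 6 genes below 0 with THZ1, with HEXIM1 the least low at -0.72.

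The ratio of 2 genes within a library does not depend on the scaling between libraries. It can still carry the trends in GC and length, which were not removed from the ratios. The longest transcript of HEXIM1 has 48.2% GC and 3600 bases, and that of CDK9 55.1% and 2463 bases. HEXIM1 over CDK9, the inhibitor's mRNA over the kinase's, was 2.02 with THZ1 in WT (1.87 to 2.28), against 0.432 with DMSO (0.417 to 0.459), as geometric means of FPKM ratios with the range over 3 libraries. It was 0.845 with THZ531, 0.844 with the combination at 500 nM, 0.526 with the combination at 2 µM, 0.469 with YKL at 500 nM and 0.372 with YKL at 2 µM. The difference from DMSO was 4.67-fold with THZ1, and the libraries did not overlap (exact two-sided permutation p = 0.1, adjusted p = 0.127 over 14 ratio tests). This is the smallest p that 3 libraries against 3 allow, and the same p held for every other agent except YKL at 500 nM, whose libraries overlapped DMSO (exact permutation p = 0.2, adjusted p = 0.233). In C312S the ratio was 1.20 with THZ1 (1.14 to 1.25), against 0.273 with DMSO (0.265 to 0.277), a 4.39-fold difference (exact permutation p = 0.1). The other C312S groups had ratios of 0.470 to 0.599.

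CCNT1 over CCNT2 varied less, with group means of the ratio between 1.85 in WT with THZ531 and 2.38 in WT with the combination at 2 µM, against 1.92 in WT DMSO. In WT the ratio differed from DMSO by 0.31 on the log2 scale with the combination at 2 µM and by -0.05 with THZ531 (exact permutation p = 0.1 and p = 0.4, adjusted p = 0.127 and 0.431). In C312S it was 2.13 with THZ1 and 2.13 with DMSO (exact permutation p = 1).

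**Figure D4:**
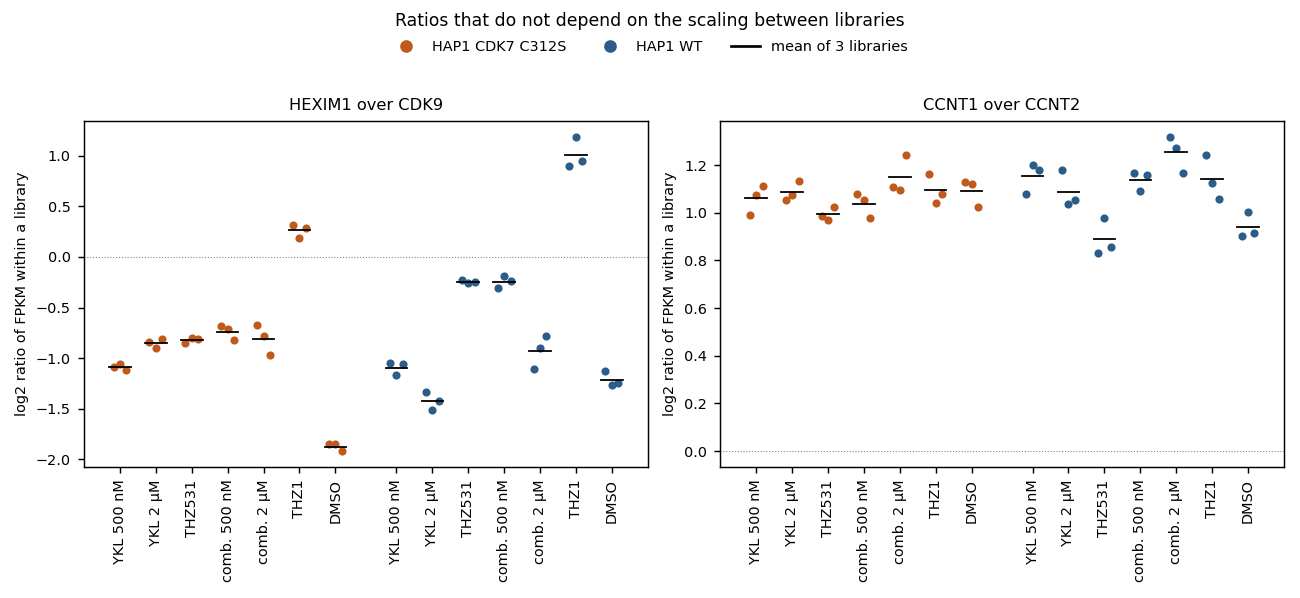
Log2 ratio of FPKM within each library for HEXIM1 over CDK9 and for CCNT1 over CCNT2, where each dot is a library and each line the mean of 3, with C312S left of WT. HEXIM1 over CDK9 is above 0 only with THZ1, with group means of 0.26 in C312S and 1.01 in WT.

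The 2 doses of YKL were compared with each other. In WT, YKL at 2 µM against 500 nM called 1 of 6 members, CCNT2 (0.20, adjusted p = 0.0227, limma), against 6.18% of all genes. At an unadjusted p under 0.05 there were 5 of 6 members. The shares of all genes given here count adjusted calls, and none was computed at an unadjusted p, so unadjusted member counts have no background. The CCNT2 call was lost in 5 of 6 fits that left out a library, with the change at 0.19 to 0.21 in all 6. The count of called members was 6 under spike-in scaling (median gene 0.47), 3 with GC and length trends removed and 2 under total-FPKM scaling. Of all 12816 genes tested, spike-in scaling called 11504 and total-FPKM scaling 692. The other 5 differences ran from -0.18 for MEPCE to 0.20 for CDK9, with intervals from -0.30 to 0.34, and the smallest adjusted p was 0.0526. In C312S the same comparison called 0 of 6 members with limma, with 1 at an unadjusted p under 0.05 and 3.67% of all genes called. Those differences ran from -0.12 to 0.11, with intervals from -0.25 to 0.20.

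In C312S, HEXIM1 had 13.6, 13.3 and 13.95 FPKM with THZ1, against 4.04, 4.39 and 4.02 FPKM with DMSO, and rose by 1.505 ± 0.046 on the log2 scale (adjusted p = 6e-22, limma). CDK9 had 10.9, 11.7 and 11.5 FPKM with THZ1, against 14.6, 15.9 and 15.2 FPKM with DMSO, and fell by 0.39 ± 0.066 (adjusted p = 5.77e-06). CCNT1 rose by 0.13 (adjusted p = 0.0453), a call lost without any 1 of C312S THZ1 replicates 1, 2 and 3 or C312S DMSO replicates 2 and 3 (0.10 to 0.14), lost with GC and length trends removed (0.03), and with the opposite sign under spike-in scaling (-0.08). That made 3 of 6 members called, against 63.6% of all genes, and 5 of 6 without C312S DMSO replicate 1. LARP7 differed by 0.01 (interval -0.10 to 0.13) and MEPCE by -0.10 (interval -0.22 to 0.01).

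HEXIM1 in the other C312S groups stayed between 8.37 and 10.7 FPKM in every library, above C312S DMSO and below C312S THZ1, though the DMSO and THZ1 libraries stand apart as described. CDK9 ranged from 14.6 to 18.9 FPKM in these 15 libraries, CCNT1 from 13.6 to 17.2, CCNT2 from 6.30 to 7.83, LARP7 from 42.8 to 52.9 and MEPCE from 29.7 to 38.2 FPKM. Their CCNT1, CCNT2 and LARP7 libraries lay below, and their MEPCE libraries above, all C312S DMSO libraries, while those of CDK9 overlapped them. The combinations were then set against C312S THZ531, where spike-in scaling called 6 of 6 members at either dose, with the median gene at -0.34 and -0.68. Of all 12816 genes tested, spike-in scaling called 10091 at 500 nM and 11784 at 2 µM. In the values as deposited, at 500 nM limma called 0 of 6 members with 0 at an unadjusted p under 0.05 (0.577% of all genes called), and differences ran from -0.09 to 0.09. At 2 µM it called 0 of 6, with 2 at an unadjusted p under 0.05 and 34.8% of all genes called, and 1 was called without C312S combination 2 µM replicate 2 or C312S THZ531 replicate 1. Those differences ran from -0.13 to 0.14. Against YKL at the same dose, the combination at 500 nM called 4 of 6 (22.1% of all genes) with HEXIM1 highest at 0.23, and 1 to 3 in the 6 fits without 1 library, lowest (1) without C312S combination 500 nM replicate 1 or C312S YKL 500 nM replicate 3. The combination at 2 µM called CCNT1 (0.20) and MEPCE (-0.23), against 29.3% of all genes, and CCNT1 lost its call without C312S combination 2 µM replicate 3 or C312S YKL 2 µM replicate 1.

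All 6 genes differed between the lines under DMSO, a comparison that rests on the C312S DMSO libraries that stand apart, and in which 79.2% of all genes were called. HEXIM1 averaged 4.15 ± 0.21 FPKM in C312S and 7.90 ± 0.658 FPKM in WT (SD, n = 3 each). MEPCE averaged 21.1 ± 1.65 FPKM in C312S and 37.5 ± 0.746 FPKM in WT, and LARP7 66.7 ± 4.17 FPKM in C312S and 46.8 ± 2.92 FPKM in WT. On the log2 scale, HEXIM1 was 0.79 and MEPCE 0.80 lower in C312S, CDK9 was 0.25 lower, and CCNT1 (0.65), CCNT2 (0.48) and LARP7 (0.50) were higher. Spike-in scaling put CCNT1 (-0.72), CCNT2 (-0.81) and LARP7 (-0.92) lower in C312S, with the median gene at -1.12, total-FPKM scaling left CCNT2 at 0.02 and LARP7 at 0.00 (median gene -0.36), and removal of the GC and length trends reversed LARP7 to -0.26 and moved MEPCE to -0.32, CCNT2 to 0.21 and CDK9 to -0.16. Under THZ531, where those libraries are not used, the lines differed in 2 of 6 members (30.4% of all genes): HEXIM1 was 0.31 lower in C312S (adjusted p = 5.04e-06, limma) and CDK9 0.23 higher (adjusted p = 0.00928), and neither was called under spike-in scaling (-0.22 and 0.33). CDK9 was not called under total-FPKM scaling (0.13) or with the replicate number as a block (0.16) either. The other 4 differences ran from -0.10 to 0.04.

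Whether an effect differed between lines was tested directly. The HEXIM1 rise with THZ1 differed by -0.01 (C312S minus WT, 95% interval -0.15 to 0.12, adjusted p = 0.885, limma), where 42.2% of all genes differed and 3 members did. LARP7 was 0.01 higher with THZ1 in C312S and fell by 0.52 in WT, a difference of 0.53 (adjusted p = 3.57e-06). The effect of THZ1 differed by -0.29 for CCNT1 and by 0.29 for MEPCE. Under spike-in scaling the median gene differed by 1.85 between lines, and the CCNT1 difference turned to 1.72. All 6 members were called on that scale, as were 12317 of all 12816 genes tested. On that scale HEXIM1 with THZ1 was 1.18 higher than with DMSO in C312S and 0.72 lower in WT.

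The step from THZ531 to the combination at 2 µM differed between lines in 4 members, against 53.1% of all genes. HEXIM1 moved by -0.05 in C312S and by -0.59 in WT, a difference of 0.54 ± 0.066 (adjusted p = 4.9e-08, limma). MEPCE moved by -0.07 in C312S and by -0.74 in WT (difference 0.67, adjusted p = 4.44e-08), and CCNT1 by 0.14 in C312S and 0.65 in WT (difference -0.51, adjusted p = 2.69e-06, -0.12 and not called under spike-in scaling). CCNT2 differed by -0.30, by -0.18 with GC and length trends removed and by 0.07 under spike-in scaling, where its direction turned. At 500 nM 1 member differed, LARP7, by 0.42 (adjusted p = 1e-04, 41.5% of all genes), and 2 did without C312S combination 500 nM replicate 1 or WT THZ531 replicate 2. The effect of YKL dose differed for CDK9 (-0.32, adjusted p = 0.0347) and HEXIM1 (0.22, adjusted p = 0.0398), against 7.75% of all genes, and every fit without 1 library kept at most 1 of these calls, with the differences at -0.35 to -0.29 for CDK9 and 0.20 to 0.25 for HEXIM1.

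**Figure D5:**
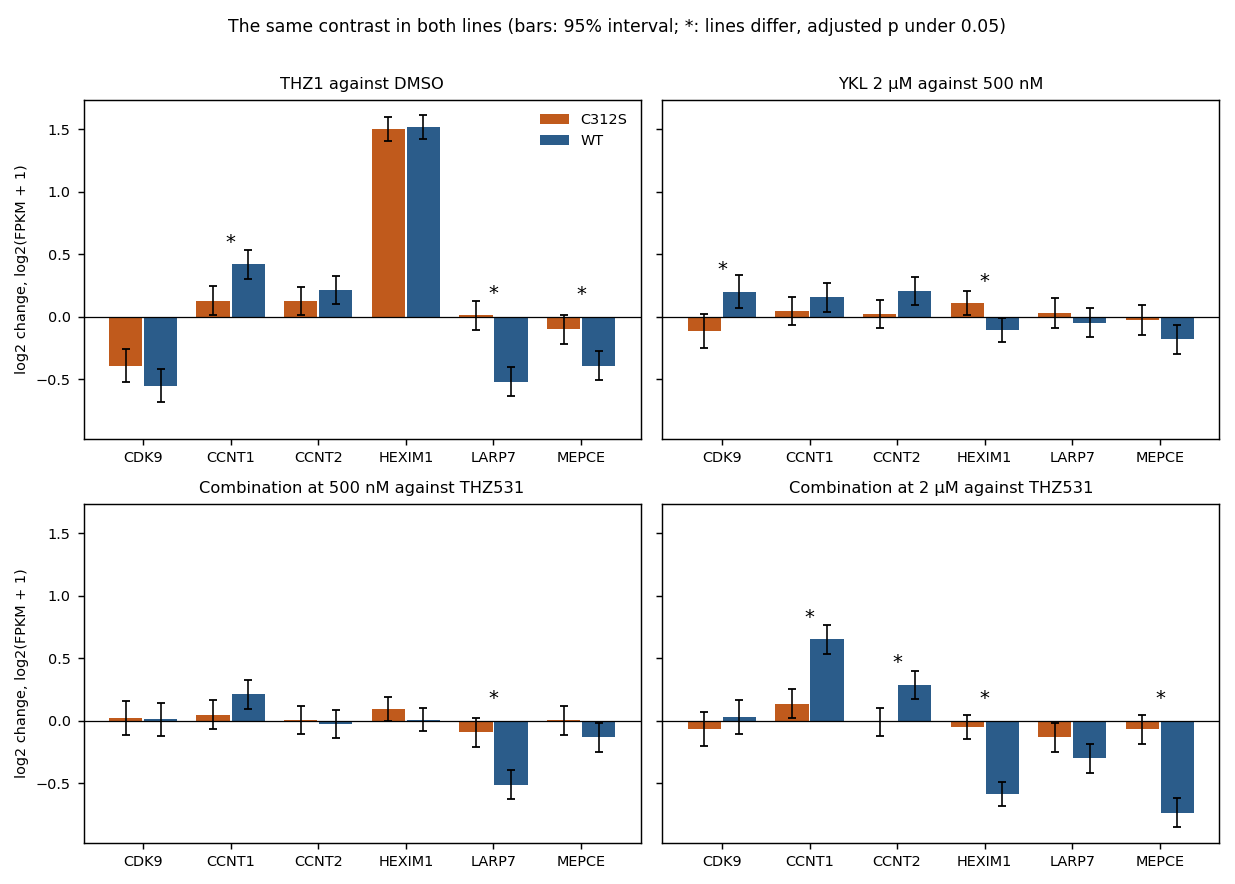
Log2 change of each gene in C312S and in WT for the same 4 contrasts on the log2(FPKM + 1) scale, where bars from the columns are 95% intervals and an asterisk marks an adjusted p under 0.05 for the difference between lines. HEXIM1 with THZ1 reaches 1.505 in C312S and 1.52 in WT, while the combination at 2 µM lowers it by 0.59 against THZ531 in WT.

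The genes around P-TEFb were read from 4 lists. The shares of all genes called in each direction, given above for each treatment, are the background of the counts. Of 9 tested genes for proteins of the 7SK particle and its release, 7 fell in RNA with YKL at 500 nM in WT (31.7% of all genes fell), 7 with YKL at 2 µM (33.5%), 2 with THZ531 (22.9%), 8 with the combination at 500 nM (34.2%), 8 at 2 µM (38.1%) and 3 with THZ1 (34.8%). The list's median change was -0.49 and -0.66 with YKL at 500 nM and 2 µM, 0.06 with THZ531 and -0.01 with THZ1. Medians with the combinations were -0.47 at 500 nM and -0.81 at 2 µM. HNRNPA1, an RNA-binding protein that takes 7SK RNA when P-TEFb leaves it, fell by 2.16 with YKL at 500 nM, to 109 FPKM against 493 FPKM with DMSO, and by 0.87 with THZ1. HNRNPA1 has many near-identical pseudogenes, so its value is uncertain. SRSF2, a splicing factor that binds 7SK RNA, fell by 1.15 with YKL at 500 nM and by 0.54 with THZ1. HEXIM2, the paralogue of HEXIM1, had 3.69 FPKM with THZ1 and 3.71 FPKM with DMSO in WT (log2 difference -0.01), and fell by 0.30 with THZ531.

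Of 12 genes that bring P-TEFb to chromatin, the BET proteins and the super elongation complex, 5 rose and 0 fell with YKL at 500 nM (31.3% and 31.7% of all genes), 4 rose and 2 fell with YKL at 2 µM (31.8% and 33.5%), and 6 rose and 2 fell with THZ531 (24% and 22.9%). With the combination at 500 nM 7 rose and 2 fell (34% and 34.2% of all genes), at 2 µM 7 rose and 4 fell (38.9% and 38.1%), and with THZ1 7 rose and 2 fell (34% and 34.8%). BRD2, a BET protein, rose by 1.08 with THZ1 and by 0.50 with YKL at 500 nM. Of the 6 genes of DSIF and NELF, the pausing factors that CDK9 phosphorylates, 3 rose and 3 fell with YKL at 500 nM, 2 and 3 with YKL at 2 µM, 0 and 1 with THZ531, 2 and 3 with the combination at 500 nM, 3 and 3 at 2 µM, and 2 and 2 with THZ1. NELFE, a NELF subunit, rose by 0.77 with YKL at 500 nM to 84.5 FPKM, against 49.2 FPKM with DMSO, and fell by 0.91 with THZ531 to 25.7 FPKM. SUPT5H, the large DSIF subunit, rose by 0.62 with THZ1. Among 13 other transcriptional kinases and cyclins, 7 rose and 0 fell with THZ531 (24% and 22.9% of all genes), 7 rose and 4 fell with THZ1 (34% and 34.8%), and 5 rose and 5 fell with the combination at 2 µM (38.9% and 38.1%). With YKL 2 rose and 3 fell at either dose, and with the combination at 500 nM 5 rose and 1 fell. CDK12 rose by 0.43 with THZ531. CDK7 itself fell by 0.38 with YKL at 500 nM and rose by 0.42 with the combination at 2 µM.

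Across the 14 group means of log2(FPKM + 1), CCNT1 and CCNT2 had a Pearson r of 0.95, and CCNT1 and MEPCE one of -0.99 (-0.99 in the 7 WT groups and -0.99 in the 7 C312S groups). HEXIM1 and CDK9 had an r of -0.57, -0.75 in WT and -0.35 in C312S. These are descriptions over groups that share the scaling of their libraries, and MEPCE and the cyclins differ in base composition. The values over 14 groups and over the C312S groups include C312S DMSO and THZ1, which stand apart. In those 2 groups CCNT1 averaged 21.5 and 23.6 FPKM, against 13.9 to 16.6 FPKM in the other C312S groups. MEPCE averaged 21.1 and 19.6 FPKM there, against 30.9 to 37.3 FPKM in the others. The genes most like each member over the 14 groups were HOXC13 (0.97), RPRD2 (0.96) and DLX2 (0.96) for HEXIM1, WIPF1 (0.97), PPARA (0.96) and APBA3 (0.96) for CDK9, and SEC23A (0.98), GNAI3 (0.98) and C2orf49 (0.98) for CCNT1. They were CUL5 (0.99), PAPOLG (0.98) and RWDD1 (0.98) for CCNT2, EIF2A (0.99), SLC11A2 (0.99) and COIL (0.99) for LARP7, and CDR2L (0.98), NELFB (0.98) and GPRC5B (0.98) for MEPCE.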

How the data were processed

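The deposited table holds FPKM per gene. HISAT2 2.0.4, Cuffnorm, Cufflinks 2.2.1 and the build hg19 are listed, in no stated order, in the submitters' processing notes. The normalization setting and filters are not given in the sources used here. All 42 columns were matched to labels, and 0 were left over. The 12816 genes that reached 1 FPKM in 3 or more libraries were tested with limma 3.58.1 (R 4.3.3) on log2(FPKM + 1), with 14 group means, a trend on expression and Benjamini-Hochberg adjustment within each of 23 comparisons. The fit was tested on simulated data. Ratios used exact permutation tests. The 92 ERCC spike-ins gave the spike-in scaling (23 over 1 FPKM throughout). Alternatives changed pseudocount, filter, scaling, samples fitted, replicate block, or left out libraries, and GC removal (98.2% of genes matched) was added after the data were seen. Named genes outside the members were the 3 with the most similar group means per member, the most significant genes of 4 lists, and CDK7, CDK12, CDK13, HEXIM2 and NELFE, and 1 more gene is not reported here. The members and lists were chosen with earlier results of these data known. Figures used matplotlib 3.10.9.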

Additional observations from a re-analysis of the deposited data

Results flagged for a closer look

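A difference between C312S and WT in the same contrast passed the threshold (interaction term in limma, adjusted p under 0.05) for 10 results, given as log2 differences, C312S minus WT. For the effect of THZ1 against DMSO (42.2% of all genes called) they were -0.29 for CCNT1, 0.53 for LARP7 and 0.29 for MEPCE, and these rest on the C312S libraries that stand apart. For YKL at 2 µM against 500 nM (7.75%) they were -0.32 for CDK9 and 0.22 for HEXIM1. Fits without 1 library lost the CDK9 call in 8 of 12 and the HEXIM1 call in 11 of 12. For the combination at 500 nM against THZ531 (41.5%) the value was 0.42 for LARP7. For the combination at 2 µM against THZ531 (53.1%) they were -0.51 for CCNT1, -0.30 for CCNT2, 0.54 for HEXIM1 and 0.67 for MEPCE. Spike-in scaling turned CCNT1 to 1.72 for THZ1, HEXIM1 to -0.17 for YKL dose and CCNT2 to 0.07 for the combination at 2 µM. CCNT1 for that combination was at -0.12 and not called on that scale.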

How the results depend on the processing

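Depth is unknown in reads, doses of THZ1 and THZ531 are not stated, and 3 libraries against 3 limit every test. A pseudocount of 0.1 left the direction and call of 83 of 83 gene results as they were, median-ratio scaling 80, no filter 78, fitting only the groups compared 74, removal of GC and length trends 66, total-FPKM scaling 63 and spike-in scaling 39. The cause was not tested for the changes below. Same-numbered libraries of a treated group and its DMSO group showed little common deviation (36 pairs, r from -0.158 to 0.248, 3 over 0.1). Whether the numbers pair libraries is not in the labels, and low correlations cannot decide it. With the replicate block 82 of 83 gene results and all 14 ratio results stayed as they were, WT YKL 2 µM against 500 nM called 2 members in place of 1 and C312S against WT under THZ531 called 1 in place of 2, without CDK9 (0.16).

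Under spike-in scaling these log2 changes reversed. With YKL at 500 nM against DMSO in WT they were CDK9 -0.62, CCNT1 -0.44 and HEXIM1 -0.48, and with YKL at 2 µM HEXIM1 -0.10. With THZ1 they were CCNT1 -1.80, CCNT2 -1.80 and HEXIM1 -0.72, with the combination at 500 nM CCNT2 -0.17, and with the combination at 2 µM CCNT1 -0.25 and CCNT2 -0.52. Against THZ531 they were CCNT1 -0.23 with the combination at 500 nM, and CCNT1 -0.48 and CCNT2 -0.79 at 2 µM. Against YKL they were MEPCE 0.11 at 500 nM, and CCNT1 -0.49, CCNT2 -0.61 and LARP7 -0.46 at 2 µM. In C312S they were CCNT1 -0.08 with THZ1 and -0.22 with the combination at 2 µM against YKL. Between lines under DMSO they were CCNT1 -0.72, CCNT2 -0.81 and LARP7 -0.92. For the differences of effects they were CCNT1 1.72 (THZ1), HEXIM1 -0.17 (YKL dose) and CCNT2 0.074 (combination at 2 µM).

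Total-FPKM scaling reversed CCNT2 (0.19) and MEPCE (0.009) with YKL at 500 nM and CCNT2 (-0.005) with the combination at 2 µM against YKL. Median-ratio scaling reversed CCNT2 with YKL at 500 nM (0.01). Removal of GC and length trends reversed CCNT2 with YKL at 500 nM (0.007), MEPCE with the combination at 500 nM against YKL (0.035) and LARP7 between lines under DMSO (-0.26).

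Counts of called members under spike-in scaling were 2 for WT YKL 2 µM, 1 for WT THZ531 and 3 for the WT combination at 500 nM against DMSO, 6 for WT YKL 2 µM against 500 nM, 5 for the WT combination at 500 nM against THZ531, 6 and 6 for the C312S combinations against THZ531, 0 and 5 for the C312S combinations at 500 nM and 2 µM against YKL, 0 for the lines under THZ531, 6 for the THZ1 effect and 4 for the YKL dose effect. In the same order, that scaling called 6618, 3309, 8376, 11504, 9043, 10091, 11784, 126, 9485, 2313, 12317 and 6050 of all 12816 genes tested. Under total-FPKM scaling the member counts were 2 for WT YKL 2 µM against 500 nM, 1 for the C312S combination at 2 µM against THZ531, 2 and 1 for the C312S combinations against YKL, and 1 for the YKL dose effect. Of all genes tested, total-FPKM scaling called 692, 4287, 2471, 3463 and 782 in the same order. With GC and length trends removed the member counts were 2 for WT THZ531, 3 for WT YKL 2 µM against 500 nM, 3 for the WT combination at 500 nM against YKL, 2 for the C312S combination at 2 µM against THZ531, 1 for the C312S combination at 500 nM against YKL, and 2 for the effect of the combination at 500 nM between lines. No count of all genes is given here with the trends removed. Fitting only the groups compared gave 1 and 1 for the C312S combinations against YKL, and no filter gave 0 for the YKL dose effect. Median-ratio scaling gave 1 for the C312S combination at 2 µM against THZ531, where it called 4512 of all 12816 genes tested. No count of all genes is given here without the filter, with only the groups compared or with the replicate block. Total-FPKM and spike-in scaling also move the share of higher calls: with THZ1 in WT it was 49.4% as deposited, 32.5% by total FPKM and 0.257% by spike-in.

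With FPKM + 1 in the ratio, HEXIM1 over CDK9 differed from DMSO by 0.89 with WT THZ531, 0.89 with the WT combination at 500 nM and 1.90 with C312S THZ1. Leaving out 1 library at a time gave 0 to 1 called members for WT YKL 2 µM against 500 nM, 2 to 5 for C312S THZ1, 0 to 1 for the C312S combination at 2 µM against THZ531, 1 to 3 and 1 to 2 for the C312S combinations at 500 nM and 2 µM against YKL, 0 to 1 for the YKL dose effect and 1 to 2 for the effect of the combination at 500 nM. It moved CDK9 (-0.031 to 0.024) and CCNT2 (-0.041 to 0.030) with YKL at 500 nM, HEXIM1 with YKL at 2 µM (-0.049 to 0.057) and the C312S ratio of CCNT1 to CCNT2 with THZ1 (-0.034 to 0.029) across 0. For the member counts without 1 library, no count of all genes is given here.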
